A study of Mus musculus with 9 samples.

Results

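The major urinary protein genes encode pheromone carriers that the mouse liver secretes and that end up in urine, and 9 of them were followed here across the livers of 9 mice. The genes were Mup3, Mup7, Mup9, Mup11, Mup12, Mup15, Mup17, Mup20 and Mup21, found by name among the 56748 genes of the count table, which holds 13 further Mup genes. They were chosen by the low counts of Mup7, Mup12, Mup15 and Mup17 in the colitis livers, so their differences from the Control group are given as descriptions without a test. The difference between Indirubin and DSS was not the criterion and was tested, although the values of both groups were known when the genes were chosen.

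All mice were C57BL/6 (C57BL/6J in the series text), 7 to 8 weeks old when purchased by the study's methods, and each group held 3 mice. The age when the livers were taken, after the treatment described next, is not stated. Control mice were labelled as given water. The study's methods give 200 µL of sterile water by mouth each day to a control group, described within the colitis model. Whether these Control mice received it is not clear from the methods. DSS mice had chronic colitis from 3 cycles of dextran sulfate sodium (DSS, a polysaccharide that injures the colon lining), each of 1 week of 1.8% DSS in the drinking water and 1 week of recovery, and the same daily water. Indirubin mice had the same colitis and 1 g/kg of indirubin, a poorly soluble component of indigo naturalis, in 200 µL of sterile water each day. The series text describes the colitis for the mice as a whole, and the Control label is the only source here for mice without DSS. Sex is not given in the sources used here, and Ddx3y, a gene of the Y chromosome, had between 18 and 155 counts in every library.

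Major urinary proteins are lipocalins, small barrel-shaped proteins that hold volatile pheromones. Hepatocytes secrete them into the blood, the kidney filters them, and scent marks release their cargo slowly. Their genes form one large cluster made by repeated duplication, with a centre of nearly identical copies and more divergent genes at the edge. Transcription in the liver is known to be higher in males and to depend on pulses of growth hormone acting through STAT5, with androgen, glucocorticoid and thyroid hormone also involved.

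The near-identity of the central copies bears on every value that follows, because a read can be assigned to one copy only where it covers a base that differs. Coding sequences of Mup7, Mup9, Mup11, Mup12, Mup15 and Mup17 were between 98.3% and 99.4% identical to each other, which is 3 to 9 differing bases a pair. They were 82.3% to 91.3% identical to Mup3, Mup20 and Mup21. Mup3 and Mup21 were the closest of those 3, at 94.7%. The same 90 coding bases of each gene (bases 236 to 325 of the Mup12 coding sequence, in the GENCODE annotation of GRCm38) are printed to show this, with capitals at the bases that differ from Mup12.
Mup12: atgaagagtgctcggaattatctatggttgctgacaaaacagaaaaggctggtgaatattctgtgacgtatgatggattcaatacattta
Mup15: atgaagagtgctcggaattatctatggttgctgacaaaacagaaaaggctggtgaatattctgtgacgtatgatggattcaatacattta
Mup11: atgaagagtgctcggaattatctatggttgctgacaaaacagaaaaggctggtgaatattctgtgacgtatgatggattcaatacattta
Mup7: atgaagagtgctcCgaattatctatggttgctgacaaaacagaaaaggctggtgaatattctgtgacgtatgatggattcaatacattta
Mup9: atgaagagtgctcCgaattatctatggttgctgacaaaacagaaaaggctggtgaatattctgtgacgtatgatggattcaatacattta
Mup17: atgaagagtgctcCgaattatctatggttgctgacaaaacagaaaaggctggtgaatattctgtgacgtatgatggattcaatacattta
Mup20: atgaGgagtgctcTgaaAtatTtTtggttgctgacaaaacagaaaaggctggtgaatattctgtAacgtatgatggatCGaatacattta
Mup21: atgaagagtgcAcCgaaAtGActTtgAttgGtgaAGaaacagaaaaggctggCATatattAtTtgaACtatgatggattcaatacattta
Mup3: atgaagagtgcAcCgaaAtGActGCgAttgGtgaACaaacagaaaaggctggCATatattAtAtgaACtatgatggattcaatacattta
In this stretch Mup11 and Mup15 had the same 90 bases as Mup12, and Mup7, Mup9 and Mup17 shared 1 difference. Mup20 differed at 8 bases, Mup21 at 17 and Mup3 at 18. Over the whole annotated transcripts, 97.1% of the 100-base windows of Mup3 and 95.5% of those of Mup21 were found in no other gene, against 61.2% for Mup20. The share was 40.6% for Mup17, 22.5% for Mup12, 16.5% for Mup11, 14.9% for Mup9, 12.9% for Mup7 and 2.66% for Mup15. How the authors treated reads that match several copies is not given in the sources used here, so a count of one central copy may hold reads of another.

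**Figure D1:**
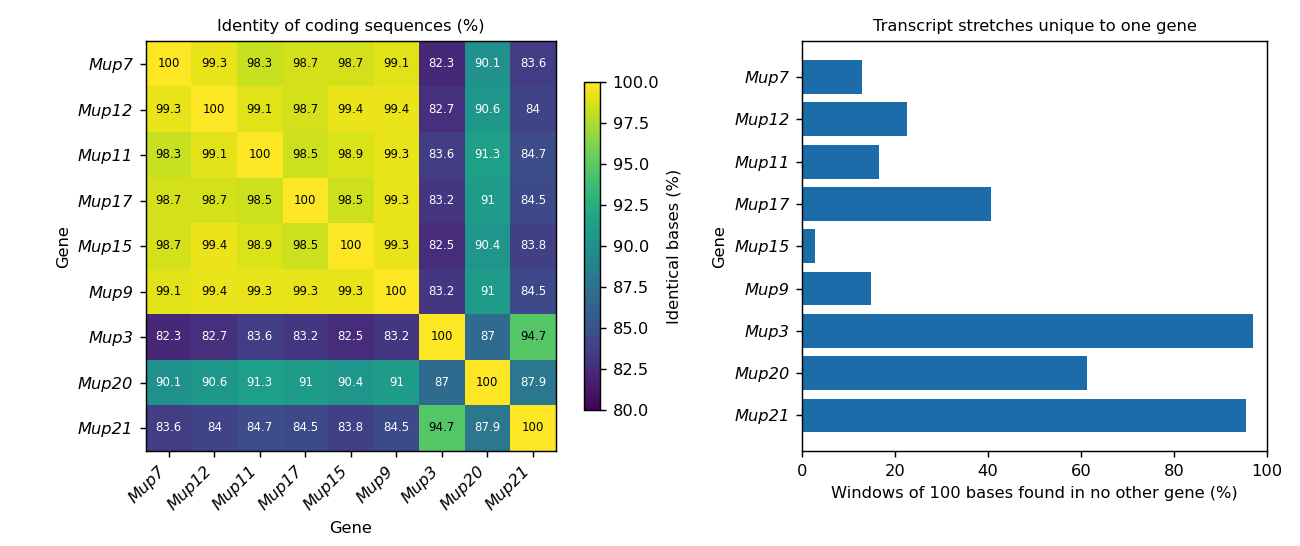
Left, percentage of identical bases between the coding sequences of each pair of the 9 genes. Right, percentage of the 100-base windows of each gene's transcript that occur in no other gene. The 6 central copies form a block of at least 98.3% identity, and the bars run from 2.66% for Mup15 to 97.1% for Mup3.

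RefSeq promoter windows of GRCm38.p6 were at hand for 7 of the 9 genes, and 5 of them held the letters TATATAA on their own strand in the 250 bases before the start. On either strand 3.04% of 32851 RefSeq promoters did, and these letters were picked after the windows had been seen. The last 100 bases before the start are shown for those 5 genes, all on the minus strand, with the match in capitals. They are chr4:60421953-60422052 for Mup9, chr4:61439705-61439804 for Mup15, chr4:61595833-61595932 for Mup17, chr4:62087318-62087417 for Mup3 and chr4:62150842-62150941 for Mup21.
Mup9: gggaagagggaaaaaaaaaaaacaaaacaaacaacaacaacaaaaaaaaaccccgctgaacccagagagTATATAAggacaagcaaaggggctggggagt
Mup15: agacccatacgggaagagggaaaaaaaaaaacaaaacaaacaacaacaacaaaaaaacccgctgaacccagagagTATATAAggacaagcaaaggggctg
Mup17: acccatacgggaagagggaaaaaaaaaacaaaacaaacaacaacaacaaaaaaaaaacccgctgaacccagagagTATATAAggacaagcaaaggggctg
Mup3: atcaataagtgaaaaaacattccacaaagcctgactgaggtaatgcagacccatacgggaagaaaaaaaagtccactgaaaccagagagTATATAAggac
Mup21: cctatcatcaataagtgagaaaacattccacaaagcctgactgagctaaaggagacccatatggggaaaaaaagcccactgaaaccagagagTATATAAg
Over 250 bases the Mup15 and Mup17 promoters were 97.6% identical and those of Mup3 and Mup21 89.1%, while Mup3 and Mup15 were at 59.6%. The window of Mup7, a central copy, was only 39.9% to 44.6% identical to those of the other members. Whether it covers the matching stretch was not checked. The STAT5 letters TTCNNNGAA were in none of the 7 windows and in 7.02% of all promoters. The steroid receptor half-site TGTTCT was in the windows of Mup3 and Mup21 and in 16.1% of all promoters, either strand counted. No counts of this series measure binding at these windows.

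Library totals lay between 6514863 and 7944684 counts, of which the mitochondrial genome took 71.6% to 91.3%, which left 569044 to 2132208 nuclear counts. Levels are given as normalized CPM, counts scaled to library size with TMM factors, on which 1 count was worth 0.0819 to 0.244. Summed markers of pancreatic acinar cells stood at 1470 CPM in Indirubin-2 and 1480 CPM in Indirubin-3, against 10.5 CPM in Indirubin-1 and at most 24.4 CPM in the other 6 livers. Prss2, which encodes a trypsinogen, had 722 and 840 counts in Indirubin-2 and Indirubin-3 and 0 to 4 elsewhere. Neutrophil markers summed to 254 and 93.8 CPM there and to 30.3 CPM or less elsewhere. Erythroid markers, those of red blood cells, summed to 672 and 657 CPM in the same livers and to 268 CPM or less elsewhere. Summed hepatocyte markers were between 12300 and 20300 CPM in Control, 10700 and 21200 CPM in DSS and 9430 and 11500 CPM in Indirubin, so all 3 Indirubin livers lay below every Control liver. Alb, the albumin gene, made up 12000, 12800 and 7510 CPM of the Control sums. Taken singly, 10 of the 16 markers were lower and 6 higher in Indirubin against Control, so the list did not fall as a whole. The part of the acinar, neutrophil, erythroid and hepatocyte transcripts in the results was not tested, and in bulk tissue fewer hepatocytes and less RNA per hepatocyte cannot be told apart.

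In Control livers the 9 genes together took 2.16%, 2.1% and 2.29% of the nuclear counts. In DSS livers they took 0.477%, 0.679% and 0.431%, and in Indirubin livers 0.59%, 0.0224% and 0.0346%. Control livers were all above the colitis livers, and within the Indirubin group Indirubin-1 stood inside the DSS range while the other 2 lay far under it. As summed normalized CPM the level was 3360 ± 261 in Control, 809 ± 180 in DSS and 283 ± 414 in Indirubin (SD, n = 3). The mean was thus 4.15-fold lower in DSS than in Control and 11.9-fold lower in Indirubin than in Control. Between the colitis groups it was 2.86-fold lower with indirubin, with overlapping livers. Those 2 ratios to Control share the same Control livers. With all 22 Mup genes of the table summed, which keeps reads assigned among those 22 inside the sum but leaves out Mup pseudogenes, the means were 3440, 819 and 289 CPM and the ratios to Control 4.2-fold and 11.9-fold.

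**Figure D2:**
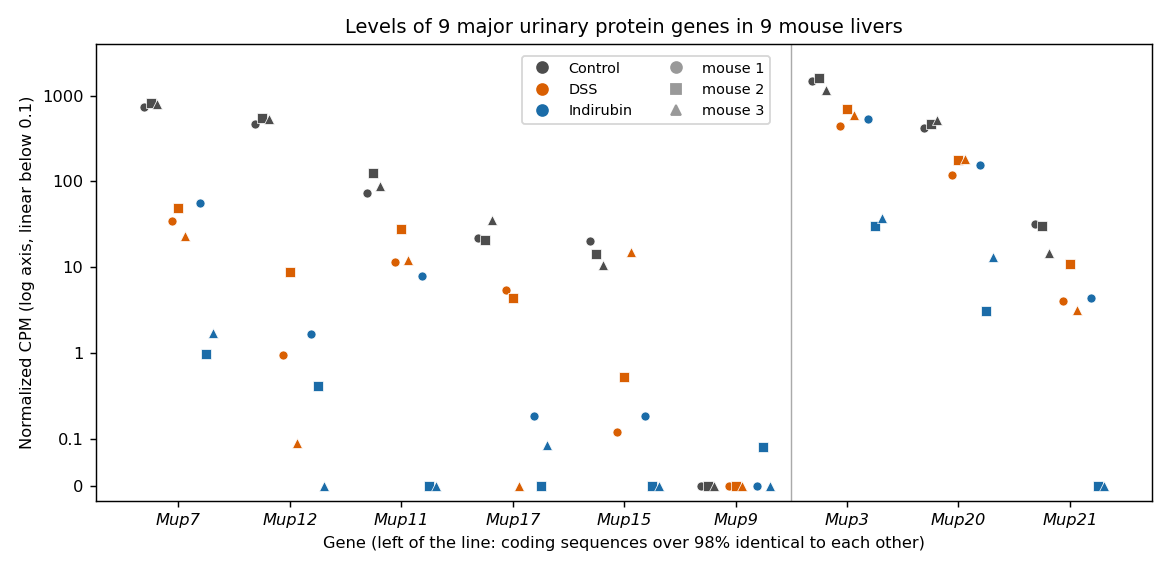
Normalized CPM of each gene in each liver, on a log axis that is linear below 0.1. Colours mark the groups and symbols the mouse number, which does not pair mice. Control livers sit above all DSS and Indirubin livers for every gene but Mup9, with counts in a single liver, and Mup15, where DSS-3 lies among the Control livers.

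The fall was steeper in the central copies than in the divergent genes, which is a description, since the 4 genes behind the choice are all central copies. The 6 central copies summed to 1320, 1540 and 1470 CPM in Control, 52.9, 91.6 and 50.7 CPM in DSS and 66.3, 1.47 and 1.81 CPM in Indirubin. Mup3, Mup20 and Mup21 summed to 1930, 2120 and 1700 CPM in Control, 563, 881 and 789 CPM in DSS and 694, 33.6 and 51.1 CPM in Indirubin. The central copies were 22.1-fold lower in DSS than in Control and the divergent genes 2.58-fold lower, and in Indirubin they were 62.1-fold and 7.39-fold lower.

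This shift can be read within each library, where no scaling enters. Central copies made up 40.5%, 42.1% and 46.3% of the counts of the 9 genes in Control livers, 8.58%, 9.42% and 6.04% in DSS livers and 8.72%, 4.21% and 3.43% in Indirubin livers. The Control livers did not overlap with the others, while the DSS and Indirubin livers did. The 10 other Mup genes with at least 98% coding identity to Mup12 can be added to the central copies, so that reads moving among all 16 stay inside the sum. That sum took 44.2% ± 4.43 of all Mup counts in Control, 9.09% ± 1.5 in DSS and 8.81% ± 2.67 in Indirubin (SD, n = 3).

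**Figure D3:**
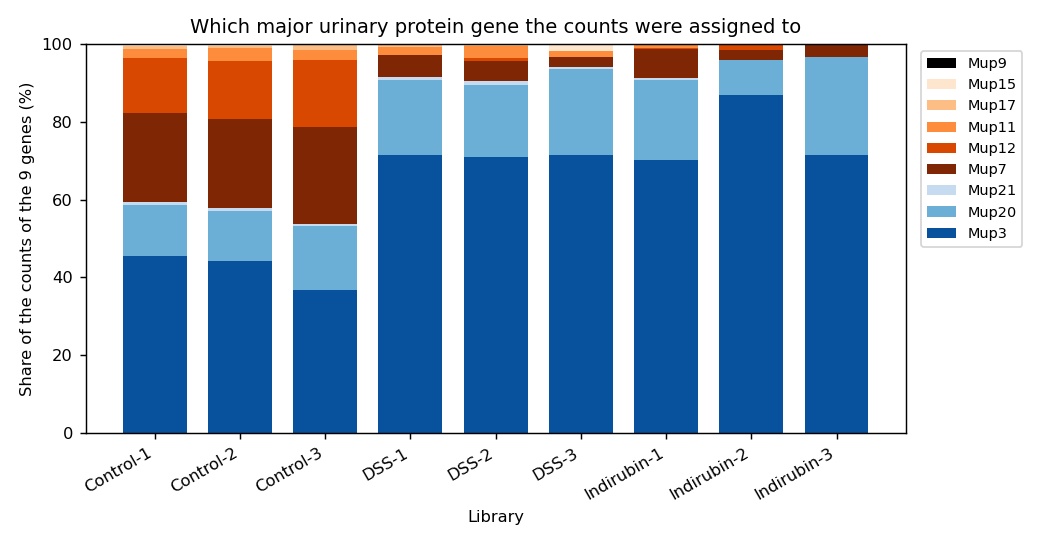
Share of the counts of the 9 genes assigned to each gene in each library, in percent, with the divergent genes in blue and the central copies in orange to brown. The blue part rises from 53.7% to 59.5% in Control livers to at least 90.6% in the 6 colitis livers.

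Mup7 (ENSMUSG00000073842, GRCm39 chromosome 4, 60066469 to 60070475, minus strand) was the most abundant central copy. It had 3794, 4716 and 3242 counts in Control, 294, 280 and 256 in DSS and 307, 12 and 20 in Indirubin. Control livers were far above every other liver, and Indirubin-1 was the highest of the 6 colitis libraries in both counts and CPM. The level was 786 ± 46.4 CPM in Control and 36.0 ± 13.1 CPM in DSS, a fitted log2 fold change of -4.4 (standard error 0.39). In Indirubin it was 19.7 ± 31.8 CPM, a log2 fold change of -5.33 (standard error 1.25) against Control and of -9.28 without Indirubin-1.

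Mup12 (ENSMUSG00000094793, 60693382 to 60697325 on the same strand) was near 0 in the colitis livers. Its counts were 2391, 3097 and 2222 in Control, 8, 50 and 1 in DSS and 9, 5 and 0 in Indirubin. All 6 colitis libraries were thus at 50 counts or fewer. From 517 ± 45.2 CPM in Control the mean fell 157-fold to 3.30 ± 4.83 CPM in DSS, and the log2 fold change of -7.34 (standard error 0.99) was the lowest of the 9 genes in that comparison. Without DSS-2, which held most of the DSS counts, it was -10.00. Against Control the Indirubin mean was 753-fold lower, at 0.687 ± 0.861 CPM. The fitted log2 fold change there was -9.75, and ran from -11.27 without Indirubin-1 to -9.07 without Indirubin-3.

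Mup11 (ENSMUSG00000073834, 60614465 to 60618410) had 377, 723 and 367 counts in Control, 97, 159 and 134 in DSS and 43, 0 and 0 in Indirubin. It was the 1 gene of the 9 whose 3 groups did not overlap in any pair. Mup22, whose coding sequence is 98.7% identical to that of Mup12, had 570 counts in Control-3, 126 in DSS-3, 27 in DSS-2, 2 in Control-2 and 0 in the other 5 livers. The counts of these copies thus depended on the library as well as the group. For Mup11 the fits against Control gave -2.43 (standard error 0.41) in DSS and -5.36 (standard error 1.33) in Indirubin on the log2 scale. The first was -3.02 without DSS-2, and the second was -4.7 without Indirubin-2 and -4.71 without Indirubin-3. Without Indirubin-1 no count was left in the Indirubin group.

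Mup17 (ENSMUSG00000096688, 61510166 to 61514108) had 112, 118 and 147 counts in Control, 46, 25 and 0 in DSS and 1, 0 and 1 in Indirubin. Every Control liver was above every colitis liver. Its log2 fold change in DSS against Control was -2.96 (standard error 0.86), with -2.33 without DSS-3 and -3.66 without DSS-1. With 2 counts in the Indirubin group, the pooled counts were 369-fold lower than in Control, with a counting interval (95%, exact, counting error only) of 101 to 3060.

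Mup15 (ENSMUSG00000096674, 61354027 to 61357980) was the exception among the central copies in the DSS group. It had 103, 81 and 43 counts in Control, 1, 3 and 164 in DSS and 1, 0 and 0 in Indirubin. DSS-3 held 15 CPM, inside the Control range of 10.5 to 20.0 CPM, while the other DSS livers held 0.119 and 0.532 CPM. The log2 fold change in DSS against Control was -1.5 (standard error 0.97) with DSS-3 and -5.48 without it. In DSS-3, Mup12 and Mup17 had 1 and 0 counts, and only 2.66% of the 100-base windows of Mup15 are its own, so whether those reads came from Mup15 cannot be told from the table. The pooled Indirubin counts of Mup15 were 445-fold lower than in Control, with a counting interval of 79.0 to 17600. Mup9 (ENSMUSG00000078686, 60374045 to 60377951) had 1 count in Indirubin-2 and 0 in the other 8 livers, so no fold is given for it.

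Mup3 (ENSMUSG00000066154, 62001713 to 62005579) was the most abundant of the 9 genes in every liver. It had 7608, 9188 and 4775 counts in Control, 3711, 3891 and 6567 in DSS and 2909, 372 and 437 in Indirubin. On the normalized scale the Control livers, at 1480, 1620 and 1160 CPM, were all above the DSS livers at 440, 690 and 600 CPM. Raw counts of DSS-3 exceeded those of Control-3, whose nuclear total was the lowest of the 9. The log2 fold change was -1.26 (standard error 0.33) in DSS, the least negative of the 8 genes fitted, and -2.82 (standard error 0.92) in Indirubin, where it was -5.49 without Indirubin-1. Its share of the counts of the 9 genes was 36.7% to 45.5% in Control and 70.9% to 71.5% in DSS.

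Mup20 (ENSMUSG00000078672, 61968471 to 61972395) encodes darcin, the male pheromone protein that draws females to scent marks. It had 2169, 2667 and 2159 counts in Control, 1006, 1017 and 2029 in DSS and 848, 38 and 154 in Indirubin. The levels were 473 ± 52.0, 162 ± 36.8 and 57.4 ± 85.3 CPM, and Indirubin-1, at 156 CPM, lay within the DSS range of 119 to 185 CPM. Log2 fold changes against Control were -1.52 (standard error 0.31) in DSS and -3.04 (standard error 1.02) in Indirubin, the latter -5.96 without Indirubin-1. Mup21 (ENSMUSG00000066153, 62066169 to 62069100), next to Mup3 in sequence, had 164, 172 and 60 counts in Control, 34, 61 and 35 in DSS and 24, 0 and 0 in Indirubin. Its log2 fold changes were -2.05 (standard error 0.51) and -4.39 (standard error 1.18). They were -2.82 without DSS-2 and -3.68 without Indirubin-2, or -3.7 without Indirubin-3, and Indirubin-1 held all the Indirubin counts.

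Per kilobase of the deposited gene length, the Control levels fell in the order Mup3 (1330 ± 219 CPM per kb), Mup7 (761 ± 44.9), Mup12 (559 ± 48.8), Mup20 (509 ± 56.0), Mup11 (61.4 ± 17.6), Mup21 (37.8 ± 14.1), Mup17 (28.2 ± 9.06), Mup15 (16.1 ± 5.21) and Mup9 at 0. Mup12 and Mup20 differed by less than their spread, as did Mup21 and Mup17. In DSS the order began with Mup3 (540 ± 118), Mup20 (174 ± 39.7) and Mup7 (34.8 ± 12.7), so that Mup20 passed both Mup7 and Mup12, the latter at 3.56 ± 5.22 CPM per kb. The order among central copies rests on how shared reads were assigned.

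**Figure D4:**
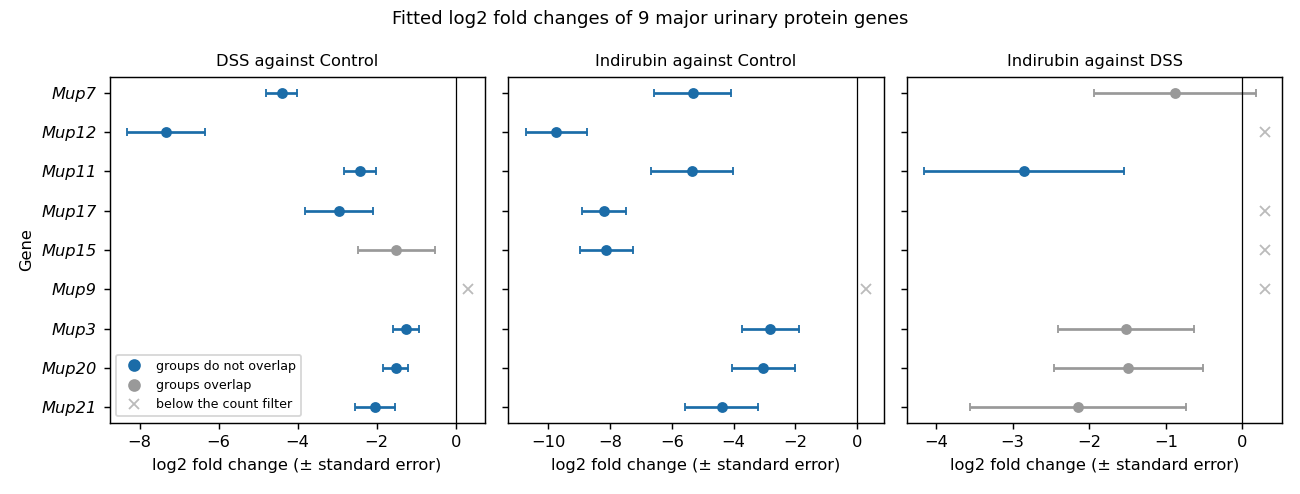
Fitted log2 fold changes with standard errors for the 3 comparisons, with blue points where the groups do not overlap, grey points where they do and crosses for genes under the count filter. Against Control all 8 fitted genes lie below 0, from -1.26 to -7.34 in DSS and from -2.82 to -9.75 in Indirubin, and against DSS 5 genes lie between -0.88 and -2.85.

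Counted over the members, 8 of 9 passed the count filter in both comparisons with Control. In DSS 7 of the 9 were lower without overlap (Mup15 overlapped), where 8.21% of 7482 genes were. In Indirubin 8 of the 9 were, where 9.07% of 8059 genes were. Since the genes were chosen for this fall, nothing further is read from these counts.

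The difference between Indirubin and DSS was not the criterion of the choice. Mup3, Mup7, Mup11, Mup20 and Mup21 passed the filter, and Mup9, Mup12, Mup15 and Mup17 did not. Mup11 and Mup21 had counts in Indirubin-1 alone of the Indirubin livers and passed the filter through the DSS livers, so no p is given for them. All 5 genes had negative log2 fold changes, with a median of -1.52 beside 0.15 over the 9117 genes tested. None of Mup3, Mup7 and Mup20 passed an adjusted p under 0.05 (edgeR's quasi-likelihood F test, Benjamini-Hochberg). No gene of the table did so (0% called), while 700 genes, or 7.68%, had an unadjusted p under 0.05. The DESeq2 Wald test called 80 genes and no member. Mup11 had the largest difference, -2.85 (standard error 1.30), and was the 1 member of 9 lower without overlap, where 5.9% of genes were. The others were Mup21 at -2.14 (standard error 1.41), Mup3 at -1.52 (standard error 0.89, adjusted p = 0.788), Mup20 at -1.49 (standard error 0.97, adjusted p = 0.84) and Mup7 at -0.88 (standard error 1.06, adjusted p = 0.965).

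One liver decided this comparison. Indirubin-1 had a summed level of 760.5 CPM, within the DSS range of 616 to 972.2 CPM, and Indirubin-2 and Indirubin-3 had 35.07 and 52.88 CPM. Without Indirubin-1 the log2 fold changes in the same edgeR fit were -4.19 for Mup3, -4.82 for Mup7 and -4.4 for Mup20. That liver was picked by its Mup level, so no p is given for this fit. With any other library left out none of these genes passed, with adjusted p of 0.579 or more in the edgeR test. Mup11 and Mup21 had 0 counts in both remaining Indirubin livers and Mup17 had 1, so these genes passed the filter through the DSS livers, and no fold or test is given for them. Indirubin-2 and Indirubin-3 are also the livers with the acinar transcripts. Their part in the difference was not tested. Every p given measures the spread between the mice, 3 a group, or 2 in the group with a library left out.

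Of 25 other liver genes with higher levels in males, Mup genes left out, 20 were tested in DSS against Control. Of these 4 fell and none rose, where 0.495% of all genes fell by the same test, and 15 were lower without overlap (8.21% of all genes were), with a median log2 fold change of -1.56 beside 0.01 over all genes. Selenbp2, a selenium-binding protein, had 236, 283 and 341 counts in Control, 10, 17 and 5 in DSS and 66, 0 and 7 in Indirubin, and fell by 5.32 in DSS (standard error 0.60, adjusted p = 0.00142 from edgeR). Elovl3, an elongase of fatty acids, fell by 3.37 (standard error 0.53, adjusted p = 0.0103), and Gstp1, a glutathione transferase, by 1.76 (standard error 0.29, adjusted p = 0.012). Hsd3b5, a steroid dehydrogenase named because it completes the 4, fell by 3.32 (standard error 0.55, adjusted p = 0.0142). C8a and C8b, complement components, and Alas2, an enzyme of haem synthesis, were named after their values were seen and had log2 fold changes of -0.06, -0.17 and -0.36, with groups that overlapped. Leaving out 1 library left between 1 and 5 of these genes called, the 1 without Control-2, and Selenbp2 passed in all 6 of those fits. Elovl3 missed the threshold without Control-2 (adjusted p = 0.0541). Gstp1 passed without DSS-1 and missed it in the other 5 fits (adjusted p between 0.054 and 0.0805). Hsd3b5 missed it without Control-2, Control-3 or DSS-3 (adjusted p between 0.0654 and 0.214).

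In Indirubin against Control none of 19 tested male-biased genes passed in edgeR, although 15 had an unadjusted p under 0.05 and a negative fold (6.38% of all genes did), and the median was -1.98 beside 0.13 over all genes. Without Indirubin-1, 14 of 23 fell and 1 rose, where 3.29% of 9721 genes fell and 1.49% rose. Summed, the male-biased genes stood at 2770, 2790 and 2380 CPM in Control, 513, 1560 and 1180 CPM in DSS and 935, 325 and 603 CPM in Indirubin. Serpina1e, a serpin, made up 1870, 1850 and 1480 CPM of the Control sums. Control livers did not overlap with the rest, and Indirubin-1 was again the highest of its group. Of the genes with higher levels in females, 4 of 24 had enough counts in DSS against Control. Sult2a8, a sulfotransferase for bile acids, fell by 1.63 (standard error 0.29, adjusted p = 0.0222), and the call did not hold in any fit with 1 library left out (adjusted p between 0.0545 and 0.157).

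No gene of growth hormone signalling passed in edgeR in any of the 3 comparisons with all libraries, with 14, 15 and 16 of 20 tested. Without Indirubin-1, 4 of 17 fell in Indirubin against Control and 1 of 18 in Indirubin against DSS, where 3.29% and 0.703% of all genes fell. In DSS against Control 4 had an unadjusted p under 0.05, all lower (4.05% of all genes were). In Indirubin against Control 3 were lower and 1 higher by that measure, where 7.45% of all genes were higher, and in Indirubin against DSS 3 were higher and none lower, where 4.45% and 3.22% of all genes were. Those lower in DSS included Igfbp3 at -1.84 (adjusted p = 0.298) and Socs2, a target and brake of the pathway, at -2.16 (adjusted p = 0.436). Ghr, the growth hormone receptor, was named after its values were seen. It stood at 52.7, 46.7 and 42.6 CPM in Control, 43.4, 46.4 and 48.2 CPM in DSS and 49.4, 8.77 and 8.81 CPM in Indirubin. Its DSS livers overlapped with Control, and the same 2 Indirubin livers that were lowest in Mup transcripts were lowest in Ghr.

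Among 16 transcription factors known as regulators of Mup or related liver genes, Nfib, a nuclear factor I protein, was the 1 that fell. Its levels were 32.7, 34.9 and 17.8 CPM in Control, 10.9, 19.1 and 7.31 CPM in DSS and 2.39, 4.92 and 4.75 CPM in Indirubin. It fell by 2.76 in Indirubin against Control (standard error 0.44, adjusted p = 0.0288 from edgeR, 14 of the 16 tested, 0.174% of all genes called lower). Its counts were 13 in Indirubin-1, 60 in Indirubin-2 and 55 in Indirubin-3, and its part in the Mup levels was not tested. With 1 library left out the adjusted p was 0.00324 without Indirubin-1 and between 0.0918 and 0.328 in the other 5 fits. In DSS against Control none of 13 tested passed, with Nfib at -1.14 (adjusted p = 0.465).

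Of the other lipocalin and fatty acid carriers of the liver, 3 of 10 tested rose and none fell in DSS against Control, where 0.214% of all genes rose. Orm2, an acute-phase carrier, had 0, 16 and 4 counts in Control, 350, 2081 and 4586 in DSS and 37, 1147 and 1605 in Indirubin, and rose by 7.74 on the log2 scale in DSS (standard error 0.97, adjusted p = 0.00216). Lcn2, which binds bacterial siderophores, rose by 6.40 (standard error 1.18, adjusted p = 0.0239) and Orm1 by 2.96 (standard error 0.51, adjusted p = 0.0164). Orm2 passed in all 6 fits with 1 library left out. Lcn2 and Orm1 each missed the threshold in 3 or more of those fits, with adjusted p up to 0.18 and 0.185. In Indirubin against Control none of 10 passed, with 2 lower and 3 higher at an unadjusted p under 0.05 (6.38% and 7.45% of all genes) and a median log2 fold change of -0.38 beside 0.13 over all genes. Without Indirubin-1, 2 of 11 fell and 3 rose in that comparison, where 3.29% and 1.49% of all genes did.

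The 22 acute-phase genes, those made by the liver in inflammation, overlap with that list. Of 21 tested in DSS against Control 9 rose and none fell, where 0.214% of all genes rose. Among them by edgeR were Saa1 (log2 fold change 8.25, standard error 0.93, adjusted p = 0.00142) and Saa2 (log2 fold change 8.8, adjusted p = 0.00216). With 1 library left out between 4 and 14 rose, 4 without Control-2, Control-3 or DSS-3, 5 without Control-1 and 14 without DSS-1. In Indirubin against Control none of 21 passed, with 14 higher at an unadjusted p under 0.05 (7.45% of all genes), and 16 of 22 rose without Indirubin-1 (1.49% of all genes). Their summed level was 3850, 4440 and 2720 CPM in Control, 6910, 19700 and 31400 CPM in DSS and 3070, 17900 and 27400 CPM in Indirubin. The 2 gene groups parted in Indirubin-1, whose acute-phase level lay in the Control range while its Mup level was 760.5 CPM against at least 3170 CPM in Control. Within DSS, DSS-1 was lowest in both, while DSS-2 was highest in Mup genes and DSS-3 in acute-phase genes. How the 2 levels relate was not tested.

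**Figure D5:**
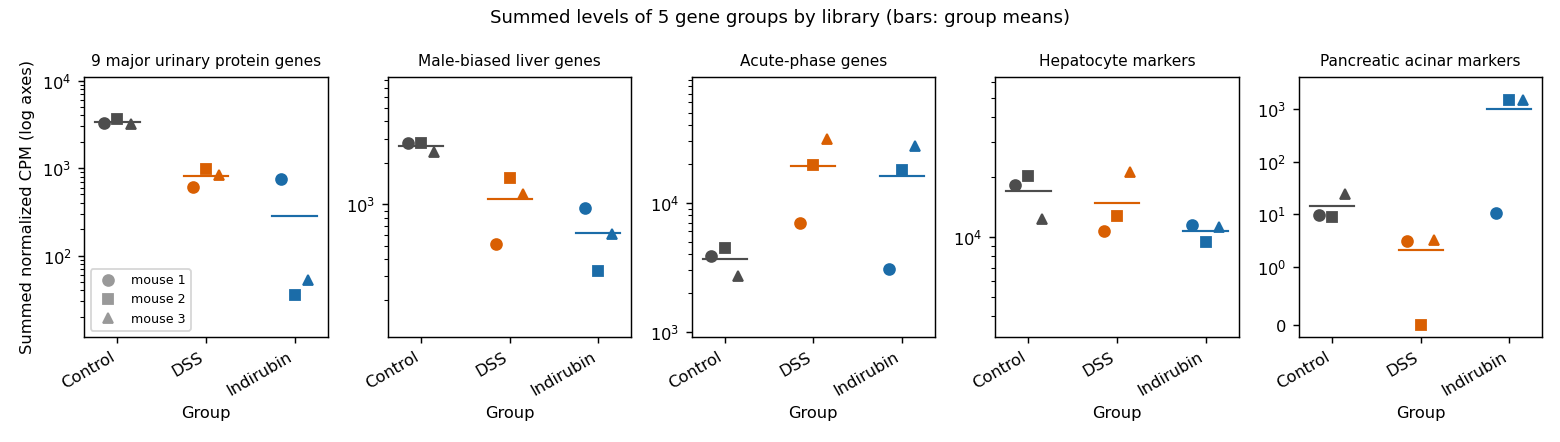
Summed normalized CPM of 5 gene groups in each liver, on log axes (the acinar axis is linear below 1), with bars at the group means. Mup genes and male-biased genes are highest in the 3 Control livers, acute-phase genes are at Control levels in Indirubin-1, hepatocyte markers are at 9430 to 11500 in Indirubin livers, below the 12300 to 20300 of Control livers, and acinar markers reach 1470 and 1480 in 2 Indirubin livers.

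Over the 9 livers, the nuclear genes outside the family whose log2 CPM followed the summed Mup level most closely, of 9667 ranked, were Ugt2b1 (Pearson's r 0.98), Mug-ps1 (0.98), Sult2a8 (0.98), Pex5 (0.978), Ces3b (0.977), Lifr (0.975), Cyp2f2 (0.968), Aox3 (0.966), Ces3a (0.964) and Gamt (0.963). Ugt2b1 conjugates steroids and drugs with glucuronic acid, Ces3a and Ces3b are carboxylesterases, Cyp2f2 is a cytochrome P450, Aox3 an aldehyde oxidase, Pex5 the import receptor of peroxisomes and Gamt an enzyme of creatine synthesis. The 9 points are shared between 3 groups and normalized together, so the values are descriptions. Ugt2b1 ran from 57.6, 65.9 and 59.9 CPM in Control through 23.1, 40.1 and 38.5 CPM in DSS to 40.2, 2.95 and 5.18 CPM in Indirubin. Ces3b had 103, 127 and 70.9 CPM, 28.7, 32.1 and 37.1 CPM and 54.3, 5.57 and 4.49 CPM in the same order. In both, Indirubin-1 stood above the DSS livers and the other 2 Indirubin livers were lowest. Among the 9 genes themselves, r with the sum was 0.973 or higher for Mup3, Mup7, Mup11, Mup20 and Mup21, between 0.787 and 0.798 for Mup12, Mup15 and Mup17, and -0.649 for Mup9, which had 1 count in all.

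The 13 other Mup genes of the table were low. Mup22 was the highest of them at 139 CPM in Control-3, and Mup14 had 9.73, 8.1 and 9.26 CPM in Control and 0 to 4.25 CPM in the colitis livers. Mup4 had no count in any library, where 3 counts would have been worth at most 0.731 CPM. The 13 together had 100, 161 and 771 counts in Control, 33, 69 and 151 in DSS and 81, 31 and 16 in Indirubin.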

How the data were processed

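Liver RNA of 9 mice was extracted by the authors with the RNeasy Plus Micro Kit, made into libraries from 400 ng and sequenced on a DNBSEQ platform. The authors deposited whole-number counts per gene without normalization, and the submitters' processing notes name the build GRCm39. The aligner, the counting program and read length are not given in the sources used here. FPKM values and the authors' own fold changes and p-values stand in the same table and were not used here, nor were 3 lists of genes.

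Tests were run in R 4.3.3 with edgeR 4.0.16 (filterByExpr, TMM, glmQLFit, glmQLFTest, Benjamini-Hochberg adjustment, threshold 0.05), one fit for each comparison, on its 6 libraries. A standard error is the log2 fold change divided by the root of its F statistic. Levels are CPM normalized by TMM over 9 libraries. Likeness used log2 CPM with a prior count of 2. Intervals of pooled ratios (95%, exact) cover counting error only, since no molecular identifiers were used. Alternatives were DESeq2 1.42.0, other scalings and filters, mitochondrial genes left out, a joint fit of the 9 libraries, a replicate block and each library left out. Sums over all Mup genes and list counts with a library left out were added after seeing the data.

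Named genes were the 9 members, other Mup genes, up to 3 genes a list with the smallest p each way in each comparison, and the 10 most alike by Pearson's r. A gene that this rule names is not reported here. The members and gene lists were chosen with earlier results of these data known. Coding sequences came from the GENCODE annotation of GRCm38, matched by gene ID for all 9 members, taking the coding transcript closest to the common length of 540 bases, aligned with Biopython 1.88. Promoters came from RefSeq on GRCm38.p6, matched by symbol. The builds were not mixed.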

Additional observations from a re-analysis of the deposited data

How the results depend on the processing

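Every fitted change of a Mup gene kept its direction under the alternatives run. In Indirubin against DSS the number of Mup genes called rose from 0 to 2 without a filter (Mup11 and Mup15). Mup15 had 1, 3 and 164 counts in DSS, so its call rests on DSS-3. With a library left out the number ranged from 0 to 5, the 5 without Indirubin-1. That liver was picked by its Mup level, so nothing is read from the 5. Of these, Mup11 and Mup21 had 0 counts in the remaining Indirubin livers. The summed level was -2.05 on the log2 scale in DSS against Control and -1.36 with library size alone as scaling, and -2.21 to -1.89 with a library left out. In Indirubin against Control it was -3.57 and -6.26 to -3.05, and in Indirubin against DSS -1.52 and -4.2 to -0.99, the lowest without Indirubin-1. Library size alone moved the median of all genes to 0.7, 1.1 and 0.43 in DSS against Control, Indirubin against Control and Indirubin against DSS.

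Counts of all genes called in these 3 comparisons in turn were 53, 19 and 0. They were 19, 266 and 2 with library size alone, 143, 316 and 80 with DESeq2, 125, 379 and 156 without a filter, 84, 72 and 2 with at least 10 counts in every sample, and 11, 56 and 4 with all 9 libraries in one fit. With a library left out they ranged from 12 to 64, 1 to 465 and 0 to 134, the upper ends of the last 2 without Indirubin-1. By direction, 16 higher and 37 lower in DSS against Control became 14 and 5 with library size alone, and 5 and 14 in Indirubin against Control became 249 and 17.

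Mice of the same number shared no deviation (correlations between -0.025 and 0.024), so the numbers do not pair them. With the replicate block the counts were 30, 49 and 3. One count was worth 0.0819 to 0.244 CPM, and Mup9, Mup12, Mup15 and Mup17 did not pass the count filter in Indirubin against DSS with all 6 libraries. The cause of these dependences was not tested.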
